A study of Mus musculus with 32 samples.

Results

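The genes described here are 35 genes of glucose uptake, glycolysis, lactate and pyruvate handling, hypoxia sensing and the pentose phosphate pathway. They were chosen by name from a count table of 53465 mouse genes, in which the 35 names matched 36 rows because Aldoa occurs on 2 rows. They were measured by bulk RNA sequencing in naive B cells, dark zone and light zone germinal centre B cells and plasma cells, each sorted from the spleen of C57BL/6 mice aged 12 weeks. The mice had been immunized intraperitoneally with NP-CGG in alum, a hapten on a protein carrier, 14 days earlier, and each library was made from 500 cells with the SMART-Seq v4 kit. WT mice carried AID-cre alone and aPIK3CD mice carried AID-cre together with aPIK3CD, so the cre was shared by both genotypes. Each of the 8 groups, 4 populations by 2 genotypes, held 4 libraries. By its design text, the study profiled the 4 populations to learn what activated signalling through PIK3CD does to them.

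Glycolysis splits glucose into pyruvate, which lactate dehydrogenase turns into lactate or the pyruvate dehydrogenase complex feeds into mitochondria, where pyruvate dehydrogenase kinases can close that entry. The pentose phosphate pathway branches off at glucose 6-phosphate and supplies NADPH and ribose for nucleotides. Germinal centre B cells divide in the dark zone and are selected by T cell help in the light zone, while plasma cells have left the cycle and secrete antibody. PIK3CD encodes p110-delta, the catalytic subunit of the phosphoinositide 3-kinase of leukocytes, whose signalling through AKT and mTOR is known to raise glucose uptake and glycolysis in lymphocytes.

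Total counts ranged from 1965329 to 2820830 in naive, from 902088 to 1835558 in light zone and from 473149 to 788999 in plasma cell libraries. Dark zone totals ranged from 1154809 to 1941224, except in dark zone WT replicate 3, which had 25797 counts and in which 1 count equals 34.3 CPM (counts scaled to the size of the library). In the 4 libraries titled aPIK3CD replicate 1 the genotype field reads WT, and they were also counted as WT. Among markers of the labels, Ighd was at 1067 CPM in naive WT and Sdc1 at 585 CPM in plasma cell WT. Cd83 was at 631 CPM in light zone WT against 290.5 in dark zone WT, but at 571 in naive WT. The light zone markers summed to a mean of 1620 CPM in light zone WT and 793 in dark zone WT. Their mean sum was 1348 in naive WT and 1881 in plasma cell WT, so the sum set the light zone apart from the dark zone only. Single markers differed from the sum. Nfkbia (1413 against 449 CPM) and Egr1 (278 against 53.1) were higher in plasma cell than in light zone WT, and the other light zone markers were lower. Of the 6 markers, 2 rose and 0 fell in light zone WT against naive WT. The summed dark zone markers were 2247 to 2458 CPM in light zone WT and 2932 to 3155 in dark zone WT. Pik3cd itself passed the test in no population (log2 fold changes -0.67, 0.08, -0.10 and -0.68 from naive to plasma cells). The labels do not say which libraries came from separate mice, so p-values measure the spread between libraries. In the count columns the 4 populations of a replicate number carry 1 name, such as Control1, which may mean a shared mouse. The fits paired them only as an alternative. In bulk libraries, fewer cells of a type and less RNA per cell cannot be told apart.

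Of the 36 rows, 32 reached the minimum for testing in at least 1 comparison. The other 4 were Ldhb, Slc16a3, Egln3 and the second row of Aldoa. Ldhb, the heart-type lactate dehydrogenase subunit, had 0 to 38 counts in naive WT and at most 7 in any other group. Slc16a3, a lactate exporter, had at most 6 counts in any library and Egln3, an oxygen-sensing prolyl hydroxylase, at most 3. Per kilobase of exon, Aldoa and Taldo1 were high in naive WT with 133 and 124 CPM per kb, followed by Ldha with 89.8. Gapdh, Pgk1 and Pgam1, 3 abundant enzymes of the glycolytic trunk, had only 3.99, 4.88 and 2.65 CPM per kb in the same cells. These 3 genes have near-identical processed copies in the genome, and reads shared with a copy may have gone uncounted. This was not tested, and their levels are uncertain. The table describes 2 rows each as pseudogenes of Gapdh, Pgk1, Pgam1, Aldoa, Ldha and Mif, and 5 as pseudogenes of Tpi1. The same limit may therefore apply to those other genes. Rows that the table describes as pseudogenes of Gapdh held 19 counts over all 32 libraries, against 1189 for Gapdh itself. The 36 rows together took 0.369 ± 0.0131% of counts in naive WT (SD, n = 4) and 0.431 ± 0.0297% in light zone WT. In plasma cell WT they took 0.27 ± 0.0196%.

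Promoters are shown for 4 genes that changed between the populations or the genotypes, among them Hk2 and Slc2a1, which are known targets of the hypoxia-inducible factor HIF1. The sequences are RefSeq windows on GRCm38.p6 that run from 250 bases before to 50 bases after a transcript start, and 34 of the 35 names, all but Slc2a3, were matched. Hk2 (hexokinase 2) is at chr6:82774405-82774704 on the minus strand, Slc2a1 (the glucose transporter GLUT1) at chr4:119108495-119108794 on the plus strand, Slc16a1 (the lactate transporter MCT1) at chr3:104638414-104638713 on the plus strand, and Pdk3 (pyruvate dehydrogenase kinase 3) at chrX:93832101-93832400 on the minus strand. Capitals mark ACGTG, the core of the hypoxia response element, or its reverse complement CACGT.
Hk2: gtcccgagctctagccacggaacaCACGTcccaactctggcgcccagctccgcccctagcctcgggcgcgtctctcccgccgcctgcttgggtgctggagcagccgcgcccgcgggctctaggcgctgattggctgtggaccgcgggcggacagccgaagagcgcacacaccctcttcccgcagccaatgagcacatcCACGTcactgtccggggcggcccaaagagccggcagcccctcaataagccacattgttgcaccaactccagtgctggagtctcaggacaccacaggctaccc
Slc2a1: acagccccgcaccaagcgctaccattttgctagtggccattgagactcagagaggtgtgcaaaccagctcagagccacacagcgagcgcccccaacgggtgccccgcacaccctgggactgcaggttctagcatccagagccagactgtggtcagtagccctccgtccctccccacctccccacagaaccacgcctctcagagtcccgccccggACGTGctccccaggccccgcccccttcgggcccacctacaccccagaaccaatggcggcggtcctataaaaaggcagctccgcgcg
Slc16a1: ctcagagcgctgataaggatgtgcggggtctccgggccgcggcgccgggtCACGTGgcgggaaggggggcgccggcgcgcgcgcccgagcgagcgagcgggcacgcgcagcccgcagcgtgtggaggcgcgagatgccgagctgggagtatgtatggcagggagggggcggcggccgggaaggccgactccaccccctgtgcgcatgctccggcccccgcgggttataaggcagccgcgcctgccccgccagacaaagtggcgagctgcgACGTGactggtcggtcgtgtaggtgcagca
Pdk3: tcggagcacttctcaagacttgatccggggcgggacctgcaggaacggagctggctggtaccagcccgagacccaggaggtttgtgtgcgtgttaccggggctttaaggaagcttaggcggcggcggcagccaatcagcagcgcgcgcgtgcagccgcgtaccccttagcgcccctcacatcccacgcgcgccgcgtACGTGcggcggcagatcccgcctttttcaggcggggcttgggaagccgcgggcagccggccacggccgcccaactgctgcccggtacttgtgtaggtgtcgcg
ACGTG was present on either strand in 25 of 48 promoter windows of the matched genes (52.1%) and in 19.6% of 32851 windows of all genes. The E-box CACGTG, which contains ACGTG, was in 6 of the 48 (12.5%) against 7.15% of all windows, and the capitals of Slc16a1 include one. GTAAACA, bound by forkhead factors such as FOXO1, was in 1 of the 48 (2.08%) against 3.65%. A match describes letters in the window and shows no binding.

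Against naive B cells, members changed in both directions in every population, and about as often as genes in general. A gene passed the test at an adjusted p under 0.05 in edgeR's quasi-likelihood test with Benjamini-Hochberg adjustment over all genes tested. In WT dark zone cells 8 members rose and 6 fell of 32 tested, where 41.4% of all genes passed (19.8% upward and 21.6% downward). In WT light zone cells 9 rose and 6 fell of 31, where 40% of all genes passed (19.8% upward and 20.2% downward). In WT plasma cells 7 rose and 10 fell of 31, where 49.6% of all genes passed (25.4% upward and 24.2% downward). In aPIK3CD dark zone cells 6 rose and 9 fell of 31, where 43.6% of all genes passed (22.2% upward and 21.4% downward). In aPIK3CD light zone cells 9 rose and 5 fell of 31, where 42.6% passed (21.8% and 20.8%), and in aPIK3CD plasma cells 8 rose and 8 fell of 30, where 52.8% passed (26.5% and 26.2%). Without dark zone WT replicate 3, 13 members passed in WT dark zone cells, and without dark zone WT replicates 1 or 4, or under DESeq2, 8 did. In WT light zone cells 9 passed without light zone WT replicate 2, and in aPIK3CD dark zone cells 9 passed with replicate 1 counted as WT, which leaves it out of a comparison within aPIK3CD. The median log2 fold change of the members was between -0.26 and 0.23 in these 6 comparisons, and that of all genes between -0.09 and -0.01. The 3 comparisons of a genotype share its naive libraries. With different libraries in each genotype, 10 members passed in the same direction in both genotypes in dark zone cells (71.4% of the WT and 66.7% of the aPIK3CD calls). In light zone cells 11 did (73.3% and 78.6%) and in plasma cells 14 (82.4% and 87.5%), and none passed in opposite directions. The share of all genes that passed in both genotypes was not computed. It therefore cannot be said whether the members agreed more than genes in general. The 5 natural killer cell markers, none at 0 in naive cells, summed to 163 to 351 CPM in naive libraries, against 0 to 99.5 in germinal centre and 18.5 to 150 in plasma cell libraries. The 6 T cell markers, none at 0 but Cd8a in dark zone aPIK3CD, summed to 135 to 236 CPM in naive, 200.4 to 377 in dark zone, 315 to 570 in light zone and 174 to 485 in plasma cell libraries, and 3 of 5 tested rose in light zone WT. Lck made up most of this sum in naive WT, with a mean of 167 CPM, and was lower in plasma cell WT at 75.8. Cd3g (8.37 in naive and 88.8 in plasma cell WT), Cd3d (6.89 and 48.1), Cd3e, Cd4 and Cd8a were higher in plasma cell WT. The 7 myeloid markers, of which S100a9 was at 0 in naive cells of both genotypes, summed to at most 48.5 CPM in naive, 46.1 in dark zone, 333 in light zone and 500.1 in plasma cell libraries. Their part in these results was not tested.

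**Figure D1:**
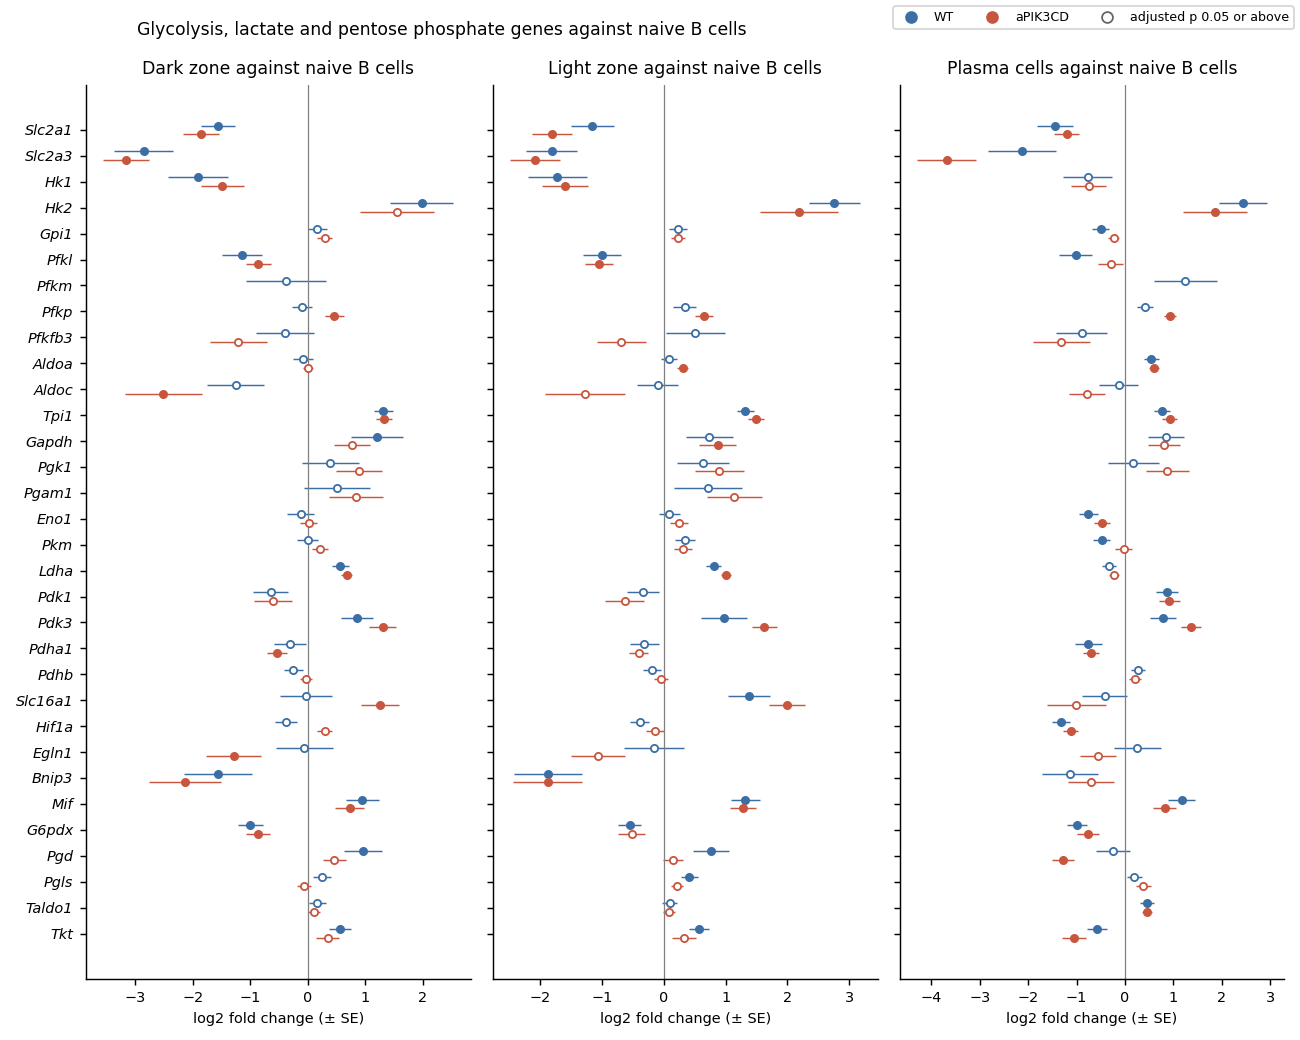
Log2 fold change against naive B cells (x axis, points with SE) for 32 genes (y axis) in dark zone, light zone and plasma cells of WT (blue) and aPIK3CD (red), with filled points at an adjusted p under 0.05. Slc2a1 and Slc2a3 lie left of 0 and Tpi1, Pdk3 and Mif right of 0 in all 3 panels, while Hk1 and Hk2 point in opposite directions.

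Both glucose transporters were lower outside the naive population. Slc2a1 encodes GLUT1, the basal glucose carrier, and Slc2a3 encodes GLUT3, a high-affinity carrier. Slc2a1 measured 59.3, 83.2, 70.6 and 71.5 CPM in the 4 naive WT libraries and 88.9, 71.6, 59.9 and 110.3 in naive aPIK3CD. In dark zone cells it measured 20.0, 30.4, 34.3 and 19.6 CPM in WT and 17.9, 31.3, 13.7 and 28.4 in aPIK3CD. In light zone cells the values were 11.3, 40.8, 45.7 and 28.3 in WT and 29.7, 10.5, 32 and 21.7 in aPIK3CD. Every naive library was above every dark and light zone library. Plasma cells gave 6.83, 18.3, 42.9 and 30.1 CPM in WT and 43.8, 30.7, 41.4 and 25.7 in aPIK3CD, also below all naive libraries. In WT, Slc2a1 fell in dark zone cells (log2 fold change -1.56, SE 0.30, adjusted p = 0.000549), light zone cells (-1.16, SE 0.34, adjusted p = 0.0156) and plasma cells (-1.45, SE 0.38, adjusted p = 0.00527). In aPIK3CD it fell by 1.85, 1.81 and 1.20 on the log2 scale. The light zone WT call was lost without light zone WT replicate 4 (adjusted p = 0.0505).

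Slc2a3 showed larger log2 differences from naive cells, on low counts. It measured 21.9, 53.6, 30.1 and 47.7 CPM in naive WT and 30.9, 50.4, 38.8 and 68.8 in naive aPIK3CD. In dark zone cells it was 6.44, 6.68, 0 and 2.61 in WT, where the 0 is replicate 3 and allows up to 103 CPM, and 3.98, 4.11, 5.5 and 7.25 in aPIK3CD. In light zone cells it was 6.28, 9.56, 13.2 and 14.7 in WT and 5.8, 15.4, 6.9 and 15.8 in aPIK3CD. All light zone libraries were below all naive libraries. In plasma cells it was 0, 15.7, 17.1 and 0 in WT and 0, 9.59, 1.88 and 3.42 in aPIK3CD, where a count of 0 allows up to 7.85 CPM at these depths. Floors of this kind are 3 counts of a library's total and cover counting error only. The WT falls were -2.85 (SE 0.52, adjusted p = 0.00035), -1.81 and -2.13 in log2 fold change for dark zone, light zone and plasma cells, and all 3 passed. In aPIK3CD they were -3.15, -2.08 and -3.69, and all 3 passed as well.

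The hexokinases, which trap glucose as glucose 6-phosphate, exchanged places between naive and germinal centre cells. Hk1, the widely expressed form, measured 16.5, 98.2, 34.1 and 41.2 CPM in naive WT and 24.7, 65.3, 30.3 and 61.9 in naive aPIK3CD. It measured 12.2, 11.9, 0 and 13.7 in dark zone WT and 18.4, 18.1, 12.4 and 15.7 in dark zone aPIK3CD. Its light zone values were 18.2, 14.7, 11.7 and 12.6 in WT and 15.2, 17.5, 11.3 and 15.8 in aPIK3CD. Naive WT libraries varied between 16.5 and 98.2 CPM, and naive WT replicate 1 fell within the light zone range. Hk1 fell in dark zone WT (log2 fold change -1.91, SE 0.52, adjusted p = 0.00736) and light zone WT (-1.73, SE 0.47, adjusted p = 0.0101), and in both zones of aPIK3CD (-1.48 and -1.60). Without naive WT replicate 2, the values in WT were -1.29 and -1.09, and both still passed. In plasma cells Hk1 was 34.2, 34, 27.4 and 13.9 in WT and 25.1, 28.8, 24.5 and 29.1 in aPIK3CD and did not pass against naive cells.

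Hk2, the inducible form, had the opposite pattern. It measured 12.6, 4.15, 7.17 and 4.45 CPM in naive WT and 2.54, 2.35, 21.5 and 9.68 in naive aPIK3CD. It measured 22.9, 19.3, 68.6 and 31.3 in dark zone WT and 20.9, 37, 19.2 and 27.8 in dark zone aPIK3CD. Light zone values were 41.5, 57.4, 36.5 and 54.4 in WT and 28.3, 54.7, 24.5 and 56.2 in aPIK3CD. All light zone libraries were above all naive libraries. Plasma cells measured 25.1, 36.6, 36 and 50.9 in WT and 25.1, 24.9, 32 and 48 in aPIK3CD. Hk2 rose in WT dark zone (log2 fold change 1.98, SE 0.55, adjusted p = 0.00857), light zone (2.76, SE 0.42, adjusted p = 0.000153) and plasma cells (2.44, SE 0.49, adjusted p = 0.000796). In aPIK3CD it rose in light zone (2.18, adjusted p = 0.0143) and plasma cells (1.86, adjusted p = 0.0328), and its dark zone value of 1.55 did not pass. Naive aPIK3CD replicate 3, at 21.5 CPM, was within the dark zone range. The plasma cell call in aPIK3CD was lost in 6 of 8 fits without 1 library. On counts per exonic base, the log2 ratio of Hk2 to Hk1 was -2.05 ± 1.74 in naive WT and -2.24 ± 1.74 in naive aPIK3CD (SD, n = 4). It was 1.78 ± 0.73 and 1.17 ± 0.36 in the dark zone, 2.22 ± 0.40 and 1.87 ± 0.44 in the light zone, and 0.98 ± 0.95 and 0.74 ± 0.40 in plasma cells. The lowest dark or light zone library, at 0.70, was above the highest naive library, at 0.13.

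For the other pairs of related genes, group means are given on the same scale as a description. The log2 ratio of Pfkp to Pfkl was -0.18 ± 0.74 in naive WT and 1.02 ± 0.49 in light zone WT, and -0.17 ± 0.50 and 1.51 ± 0.26 in aPIK3CD. For Pdk3 to Pdk1 it was 2.12 ± 0.61 and 3.28 ± 1.18 in WT, and 1.86 ± 0.53 and 4.21 ± 0.77 in aPIK3CD, and the mean of Pdk3 was above that of Pdk1 in all 8 groups. In plasma cells this ratio was 2.09 ± 0.34 in WT and 2.33 ± 0.23 in aPIK3CD. Slc2a3 was below Slc2a1 in all 8 groups by the mean ratio, from -1.88 ± 0.47 in naive aPIK3CD to -4.54 ± 1.83 in plasma cell aPIK3CD (SD, n = 4).

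**Figure D2:**
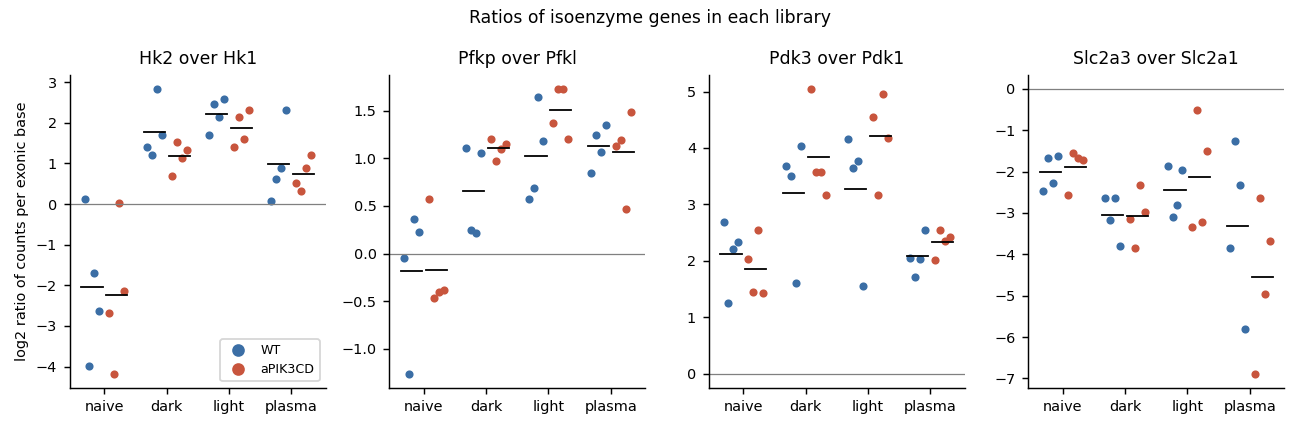
Log2 ratio of counts per exonic base (y axis) for 4 pairs of isoenzyme or transporter genes in each library, by population (x axis) and genotype (blue WT, red aPIK3CD), with bars at the group means. The Hk2 to Hk1 ratio is at or below 0.13 in naive libraries and at or above 0.70 in dark and light zone libraries.

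Of the phosphofructokinases, which catalyse the committed step of glycolysis, the liver form Pfkl was lower in germinal centre cells and the platelet form Pfkp was higher where it changed. Pfkl measured 90.0, 230.3, 95.7 and 87.7 CPM in naive WT, with replicate 2 far above the others, and 77, 112, 131 and 135 in naive aPIK3CD. It measured 66, 78.4, 56.3 and 48.2 in light zone WT and 69.6, 38.6, 55.2 and 56.2 in light zone aPIK3CD. The light zone ranges lay below the naive ranges in both genotypes. Pfkl fell in dark zone WT (log2 fold change -1.14, SE 0.34, adjusted p = 0.0135), light zone WT (-1.01, SE 0.31, adjusted p = 0.0188) and plasma cell WT (-1.02, SE 0.34, adjusted p = 0.021). Without naive WT replicate 2 these became -0.69, -0.54 and -0.53, and the last 2 no longer passed. The light zone call was also lost without light zone WT replicates 3 or 4, the plasma cell call without plasma cell WT replicates 2 or 4, and the dark zone call without dark zone WT replicate 1. In aPIK3CD, Pfkl fell in both zones (-0.86 and -1.05) in every fit without 1 library.

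Pfkp measured 229.8, 163, 198 and 209 CPM in naive aPIK3CD, 362, 259, 368 and 261 in light zone aPIK3CD and 348, 365, 393 and 399 in plasma cell aPIK3CD. The plasma and light zone ranges of aPIK3CD lay above the naive range. It rose in light zone (0.65, SE 0.15, adjusted p = 0.00374) and plasma cells (0.93, SE 0.12, adjusted p = 5.12e-05) of aPIK3CD, and in dark zone cells by 0.46, a call lost in 5 of 8 fits without 1 library. In WT its values were -0.10, 0.34 and 0.41 in log2 fold change, and none passed. The muscle form Pfkm had low counts, with means of 0.469 to 18.2 CPM, and passed in no comparison. Pfkfb3, which makes the activator fructose 2,6-bisphosphate, had means of 7.77 to 21.2 CPM and passed in none either.

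In the lower part of glycolysis, triose phosphate isomerase (Tpi1) was higher in every population than in naive cells. Tpi1 measured 117, 120.2, 128 and 135 CPM in naive WT and 133, 93.5, 115 and 141 in naive aPIK3CD. Dark zone values were 284, 301, 171 and 349 in WT, the lowest being replicate 3, and 309, 287, 302 and 305 in aPIK3CD. Light zone values were 318, 349, 309 and 261 in WT and 382, 319.9, 331 and 319.8 in aPIK3CD. No germinal centre library reached down to the naive range. Plasma cells were intermediate with 198, 238, 197 and 189.9 in WT and 233, 238, 199.6 and 233 in aPIK3CD. Tpi1 rose in WT dark zone (log2 fold change 1.31, SE 0.16, adjusted p = 1.01e-05), light zone (1.32, SE 0.14, adjusted p = 7.18e-06) and plasma cells (0.76, SE 0.16, adjusted p = 0.00108). In aPIK3CD the log2 fold changes were 1.33, 1.49 and 0.92, and all 6 calls held in every fit without 1 library.

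Of the 16 rows of glycolytic enzymes, 3 rose and 2 fell of 15 tested in dark zone WT, 2 rose and 2 fell of 14 tested in light zone WT and 3 rose and 4 fell of 14 tested in plasma cell WT against naive cells, where 41.4%, 40% and 49.6% of all genes passed. In aPIK3CD, 2 rose and 3 fell of 14 tested, 5 rose and 2 fell of 14 tested and 4 rose and 1 fell of 13 tested in the same order, where 43.6%, 42.6% and 52.8% of all genes passed. Aldoa, the main aldolase, rose in plasma cells of WT (0.54, SE 0.15, adjusted p = 0.00829) and aPIK3CD (0.60, SE 0.11, adjusted p = 0.000663) and in light zone aPIK3CD (0.30). Eno1 (enolase) was unlike it and fell in plasma cells, by 0.76 on the log2 scale in WT and by 0.48 in aPIK3CD, the latter lost in 4 of 8 fits without 1 library. Pkm (pyruvate kinase) fell in plasma cell WT (-0.48, SE 0.18, adjusted p = 0.0358), a call lost in 5 of 8 such fits, and had a value of -0.03 in aPIK3CD. Gpi1, which interconverts glucose and fructose 6-phosphate, fell in plasma cell WT (-0.50), a call lost without naive WT replicate 4 (adjusted p = 0.071). Gapdh passed in dark zone WT (1.20, SE 0.45, adjusted p = 0.0443) and light zone aPIK3CD (0.87, SE 0.31, adjusted p = 0.037), on few counts. The first of these calls was lost in 8 of 8 fits without 1 library, among them the fit without dark zone WT replicate 3 (0.90, adjusted p = 0.0541), and the second in 6 of 8. Pgk1 and Pgam1 passed in no comparison, and against naive cells the log2 fold changes of Pgk1 were 0.17 to 0.89. The brain form of aldolase, Aldoc, fell in dark zone aPIK3CD (-2.51, SE 0.66, adjusted p = 0.00858).

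Of the 8 lactate and pyruvate genes, 2 rose and 0 fell of 6 tested in dark zone WT, 3 rose and 0 fell of 6 tested in light zone WT and 2 rose and 1 fell of 6 tested in plasma cell WT against naive cells, where 41.4%, 40% and 49.6% of all genes passed. In aPIK3CD, 3 rose and 1 fell of 6 tested, 3 rose and 0 fell of 6 tested and 2 rose and 1 fell of 6 tested in the same order, where 43.6%, 42.6% and 52.8% of all genes passed. Lactate dehydrogenase A and the transporter MCT1 were higher in the light zone than in naive cells. Ldha, which turns pyruvate into lactate, measured 318, 262, 318 and 291 CPM in naive WT and 309.7, 282, 295 and 299 in naive aPIK3CD. Dark zone values were 371, 418, 514 and 465 in WT and 443, 443, 461 and 535 in aPIK3CD. Light zone values were 533, 569, 499 and 465 in WT and 669, 573, 584 and 553 in aPIK3CD. All germinal centre libraries were above all naive libraries of Ldha. In plasma cells it measured 228, 228, 252 and 201 in WT and 271, 253, 264 and 218 in aPIK3CD. Ldha rose in dark zone WT (log2 fold change 0.56, SE 0.15, adjusted p = 0.00746) and light zone WT (0.81, SE 0.12, adjusted p = 0.000143), and by 0.68 and 1.01 in aPIK3CD. Its plasma cell values of -0.34 and -0.22 against naive cells did not pass, although the ranges did not overlap.

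Slc16a1 (MCT1), which carries lactate and pyruvate across the membrane, measured 16.5, 20.1, 48 and 25.9 CPM in naive WT and 15.2, 18.8, 36.1 and 16.9 in naive aPIK3CD. Dark zone values were 18.6, 30.4, 68.6 and 24.8 in WT, where the highest is replicate 3 with 2 counts, and 60.2, 36.2, 52.9 and 56.2 in aPIK3CD. Light zone values were 54, 66.3, 95.9 and 69.1 in WT and 79, 97.5, 71.5 and 96.6 in aPIK3CD. Every light zone library lay above every naive library. Plasma cell values were 31.9, 23.5, 12 and 13.9 in WT and 25.1, 7.67, 7.53 and 1.71 in aPIK3CD. Slc16a1 rose against naive cells in light zone WT (1.37, SE 0.34, adjusted p = 0.00531), light zone aPIK3CD (1.99, SE 0.29, adjusted p = 0.000175) and dark zone aPIK3CD (1.25, SE 0.33, adjusted p = 0.00891). In dark zone WT its log2 fold change was -0.03 and did not pass.

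The kinases that restrain pyruvate dehydrogenase separated by population. Pdk3 measured 99.7, 41.1, 103 and 71.1 CPM in naive WT and 101, 48.9, 89.8 and 74 in naive aPIK3CD. Dark zone values were 147, 134, 34.3 and 149 in WT and 241, 133, 213 and 176 in aPIK3CD, and light zone values were 226, 138, 190.3 and 50.3 in WT and 283, 205, 261 and 217 in aPIK3CD. The aPIK3CD germinal centre libraries were all above the naive aPIK3CD libraries, whereas the WT ranges overlapped through dark zone WT replicate 3 and light zone WT replicate 4. In aPIK3CD, Pdk3 rose in dark zone (1.30, SE 0.23, adjusted p = 0.000738), light zone (1.62, SE 0.20, adjusted p = 5.71e-05) and plasma cells (1.36, SE 0.21, adjusted p = 0.000152), in every fit without 1 library. In WT the rises were 0.85, 0.97 and 0.78, with calls lost in 3 of 8, 5 of 8 and 4 of 8 fits without 1 library.

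Pdk1 was instead high in plasma cells. It measured 46.7, 52.3, 67.4 and 42.8 CPM in naive WT and 75.1, 54.4, 46.8 and 83.6 in naive aPIK3CD. Plasma cell values were 105, 91.6, 106 and 69.5 in WT and 149, 102, 111 and 123 in aPIK3CD, above all naive libraries of the same genotype. Pdk1 rose in plasma cells of WT (0.87, SE 0.23, adjusted p = 0.00604) and aPIK3CD (0.92, SE 0.22, adjusted p = 0.00404), and its dark and light zone values of -0.65 to -0.33 did not pass. The catalytic subunit gene Pdha1 fell in plasma cells of WT (-0.76, lost in 4 of 8 fits without 1 library and -0.49 without naive WT replicate 3) and aPIK3CD (-0.70, SE 0.17, adjusted p = 0.0043), and in dark zone aPIK3CD (-0.53, lost in 6 of 8). Pdhb, its partner subunit, passed in none of the 6 comparisons with naive cells.

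**Figure D3:**
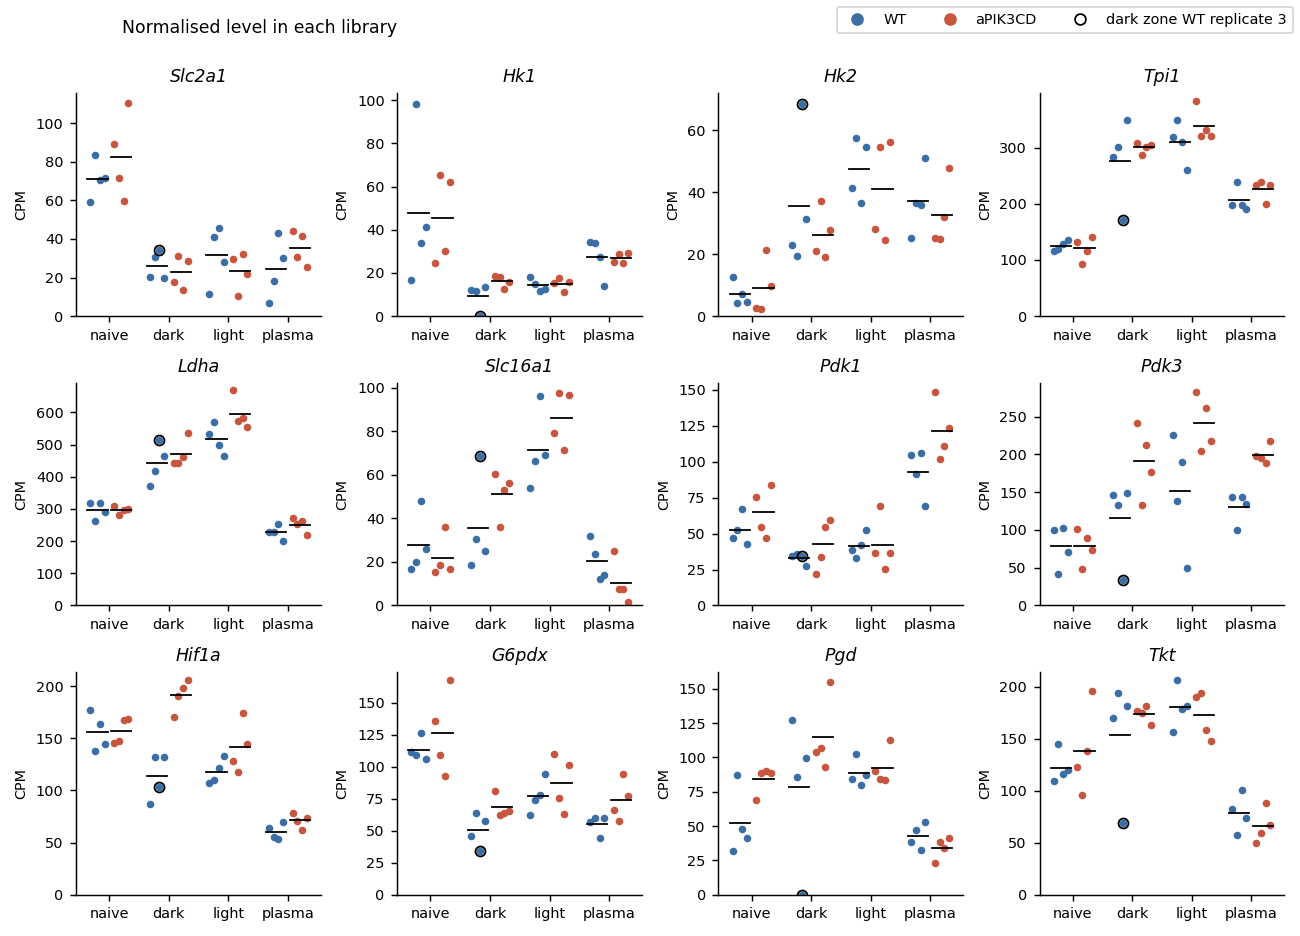
Normalised level in CPM (y axis) of 12 genes in each of the 32 libraries by population (x axis) and genotype (blue WT, red aPIK3CD), with bars at the group means and dark zone WT replicate 3 ringed. Slc2a1 is high in naive libraries, Hk2 and Slc16a1 are high in light zone libraries, and Pdk1 is high in plasma cells.

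Among the genes of oxygen sensing, Hif1a, the oxygen-regulated transcription factor subunit, was low in plasma cells. It measured 177, 137, 164 and 145 CPM in naive WT and 145, 148, 168 and 168 in naive aPIK3CD. In plasma cells it measured 63.8, 54.9, 53.1 and 69.5 in WT and 78.3, 71, 62.1 and 73.6 in aPIK3CD, far below all naive libraries. Hif1a fell in plasma cells of WT (log2 fold change -1.32, SE 0.19, adjusted p = 4.29e-05) and aPIK3CD (-1.12, SE 0.15, adjusted p = 6.33e-05) and passed in neither germinal centre zone against naive cells. Bnip3, a mitophagy receptor and hypoxia target, had low counts and means of 12.0 and 13.0 CPM in naive WT and aPIK3CD. Its log2 fold changes in the dark zone were -1.56 in WT and -2.13 in aPIK3CD, and in the light zone -1.88 and -1.88, and all 4 passed. The dark zone WT call was lost in 7 of 8 fits without 1 library, among them that without dark zone WT replicate 3 (-1.57, adjusted p = 0.0537), and the light zone WT call without light zone WT replicate 2. Egln1, the main oxygen sensor of the pathway, fell in dark zone aPIK3CD (-1.29, SE 0.47, adjusted p = 0.0431), a call lost in 5 of 8 such fits.

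Mif, a cytokine with a tautomerase fold, was higher outside the naive population. It measured 32.1, 25.2, 32.6 and 29.1 CPM in naive WT and 72.2, 72, 63.9 and 86.9 in light zone WT. In aPIK3CD it measured 29.8, 30.9, 39.5 and 27 in naive and 77.6, 87, 67.7 and 75 in light zone cells, so that light zone and naive libraries did not overlap. Mif rose in WT dark zone (0.94, SE 0.29, adjusted p = 0.0146), light zone (1.32, SE 0.23, adjusted p = 0.00054) and plasma cells (1.18, SE 0.28, adjusted p = 0.00258), and by 0.73, 1.28 and 0.82 in aPIK3CD. The dark zone calls were lost without dark zone WT replicate 4 (adjusted p = 0.0554) and, in aPIK3CD, in 5 of 8 fits without 1 library.

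Of the 5 pentose phosphate genes, 2 rose and 1 fell in dark zone WT, 3 rose and 1 fell in light zone WT and 1 rose and 2 fell in plasma cell WT against naive cells, where 41.4%, 40% and 49.6% of all genes passed. In aPIK3CD 0 rose and 1 fell, 0 rose and 0 fell and 1 rose and 3 fell, where 43.6%, 42.6% and 52.8% of all genes passed. G6pdx, the entry enzyme that makes NADPH, measured 111, 109, 126 and 106 CPM in naive WT and 45.8, 63.8, 34.3 and 57.4 in dark zone WT. It measured 62.2, 73.9, 77.6 and 94.2 in light zone WT and 57, 60.2, 44.6 and 60.2 in plasma cell WT. All 12 of those libraries were below the naive WT range. G6pdx fell in WT dark zone (log2 fold change -1.0, SE 0.22, adjusted p = 0.00149), light zone (-0.55, SE 0.18, adjusted p = 0.0281) and plasma cells (-0.99, SE 0.20, adjusted p = 0.000781). The light zone call was lost without light zone WT replicates 1 or 2 or naive WT replicate 3. In aPIK3CD the falls were -0.87 in dark zone and -0.76 in plasma cells, the latter lost without plasma cell aPIK3CD replicate 2 (adjusted p just above 0.05), and the light zone value of -0.52 did not pass.

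Pgd and Tkt, the second NADPH-making dehydrogenase and a transketolase of the branch that makes ribose, were lower in plasma cells than in light zone cells of both genotypes. Pgd measured 31.6, 87.1, 48 and 41.6 CPM in naive WT and 69.3, 88.4, 89.8 and 88.8 in naive aPIK3CD. It measured 84.2, 103, 79.7 and 86.9 in light zone WT and 89.9, 84.2, 83.4 and 112 in light zone aPIK3CD, and 38.7, 47.1, 32.6 and 53.3 and 23.5, 38.4, 33.9 and 41.1 in plasma cells of WT and aPIK3CD. Its plasma cell libraries lay below all light zone libraries. Pgd passed against naive cells in WT dark zone (0.96) and light zone cells (0.76), calls lost in 6 of 8 and 7 of 8 fits without 1 library. It fell in plasma cell aPIK3CD (-1.29, SE 0.22, adjusted p = 0.000446). Tkt measured 109, 144, 116 and 120.0 CPM in naive WT, 156, 206, 179 and 181 in light zone WT and 82, 57.6, 101 and 74.1 in plasma cell WT. Its light zone range was above, and its plasma cell range below, the naive range. Tkt rose in WT dark zone (0.56, lost in 5 of 8 fits without 1 library) and light zone cells (0.57, SE 0.16, adjusted p = 0.0111, lost without light zone WT replicate 2). It fell in plasma cells of WT (-0.58, lost without naive WT replicate 2 or plasma cell WT replicates 2 or 4) and aPIK3CD (-1.05, SE 0.25, adjusted p = 0.00438). Taldo1, the transaldolase, rose in plasma cells of WT (0.45, lost without naive WT replicate 3 or plasma cell WT replicates 1 or 3, the last giving 0.30) and aPIK3CD (0.46, SE 0.10, adjusted p = 0.00293). Pgls, the lactonase between the dehydrogenases, rose in light zone WT (0.41, lost in 4 of 8).

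Between the zones 1 member passed, the lactate transporter Slc16a1, and in both genotypes. In WT 1 member rose and 0 fell of 29 tested, where 2.55% of all genes passed (1.3% upward and 1.26% downward). In aPIK3CD 1 rose and 0 fell of 30, where 6.04% passed (3.13% and 2.91%). Slc16a1 rose from dark to light zone in WT (log2 fold change 1.50, SE 0.30, adjusted p = 0.00763), with light zone values of 54, 66.3, 95.9 and 69.1 CPM against 18.6, 30.4, 68.6 and 24.8, which overlap only through dark zone replicate 3. In aPIK3CD the rise was 0.74, SE 0.21, adjusted p = 0.0492, with no overlap between the libraries. The WT call was kept without dark zone WT replicate 3 (1.54, adjusted p = 0.00808) and lost without dark zone WT replicate 1 (adjusted p = 0.0615), and the aPIK3CD call was lost in 8 of 8 fits without 1 library. In 1 fit of all 32 libraries it passed in neither genotype, and under DESeq2 3 members passed in aPIK3CD. Of the tested members, 25 of 29 in WT and 21 of 30 in aPIK3CD had a higher fitted level in the light zone, with medians of 0.23 and 0.18 on the log2 scale against 0.02 and -0.01 for all genes. The share of all genes with a higher level is not given here, and the members share the same libraries. No joint rise can therefore be read from these counts. Ldha was 0.29 and 0.33, Hk2 0.89 and 0.65, and Mif 0.42 and 0.56 in WT and aPIK3CD, none of which passed. The 6 T cell markers summed to 315 to 570 CPM in light zone and 200.4 to 377 in dark zone libraries, and the 7 myeloid markers, of which S100a8 was at 0 in dark zone WT and light zone aPIK3CD, S100a9 and Cd14 were at 0 in dark zone WT and none was at 0 in the other zone groups, reached 333 CPM in the light zone against 46.1 in the dark zone. Their part in these values was not tested.

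From light zone to plasma cells, Ldha and the lactate transporter Slc16a1 fell, as did Pgd and Tkt of the pentose phosphate pathway, and Pdk1 rose. In WT 5 members rose and 9 fell of 28 tested, where 56.4% of all genes passed (28.1% upward and 28.3% downward). In aPIK3CD 5 rose and 8 fell of 29, where 61.2% passed (29.5% and 31.6%). Ldha fell in WT (log2 fold change -1.14, SE 0.14, adjusted p = 5.14e-06) and aPIK3CD (-1.23, SE 0.12, adjusted p = 4.99e-07). Slc16a1 fell in WT (-1.80, SE 0.33, adjusted p = 0.000322) and aPIK3CD (-2.97, SE 0.41, adjusted p = 2.68e-05). Tkt fell in WT (-1.14, SE 0.19, adjusted p = 0.000132) and aPIK3CD (-1.38, SE 0.19, adjusted p = 2.27e-05), and so did Pgd (-1.01 and -1.43) and Hif1a (-0.92 and -0.98). Pdk1 rose in WT (1.22, SE 0.23, adjusted p = 0.000346) and aPIK3CD (1.55, SE 0.28, adjusted p = 0.000242), from light zone levels of 38.3, 33.1, 42.1 and 52.4 CPM in WT and 36.2, 69.5, 25.1 and 36.3 in aPIK3CD. These 6 genes kept their calls in every fit without 1 library, as did Gpi1, Tpi1 and Eno1 in both genotypes. The plasma and light zone libraries did not overlap for any of the 6, and the share of all genes without overlap is not given here. Gpi1 (-0.72 and -0.46), Tpi1 (-0.55 and -0.57) and Eno1 (-0.83 and -0.73) fell in WT and aPIK3CD. Pkm fell in WT (-0.82) and had a value of -0.34 in aPIK3CD. Hk1 rose in both genotypes (0.96 and 0.85), calls lost in 6 of 8 and 6 of 8 fits without 1 library. Aldoa rose in WT (0.47) and aPIK3CD (0.30, lost in 5 of 8), and so did Taldo1 (0.37 and 0.37, lost in 6 of 8 and 4 of 8). Pdhb rose in WT (0.46, lost without light zone WT replicate 2), and Pfkl rose in aPIK3CD (0.75, lost without light zone aPIK3CD replicate 2 or plasma cell aPIK3CD replicate 3, the latter giving 0.47). Across genotypes, 12 members passed in the same direction (85.7% of the WT and 92.3% of the aPIK3CD calls), and the matching share of all genes was not computed.

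Between the genotypes, 1 member passed in 1 population. In plasma cells 1 member rose and 0 fell of 25 tested, where 3.2% of all genes passed (1.98% upward and 1.22% downward). No member passed of 31 tested in naive cells (0% of all genes), of 30 in dark zone cells (0.021%) or of 30 in light zone cells (0%) by edgeR or by the DESeq2 Wald test. At an unadjusted p under 0.05, 1, 4 and 1 members were found in these 3 populations, where 3.06%, 7.5% and 6.63% of all genes were. The median log2 fold change of the members from naive to plasma cells was 0.06, 0.13, 0.05 and 0.17, against -0.01 to 0.01 for all genes.

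**Figure D4:**
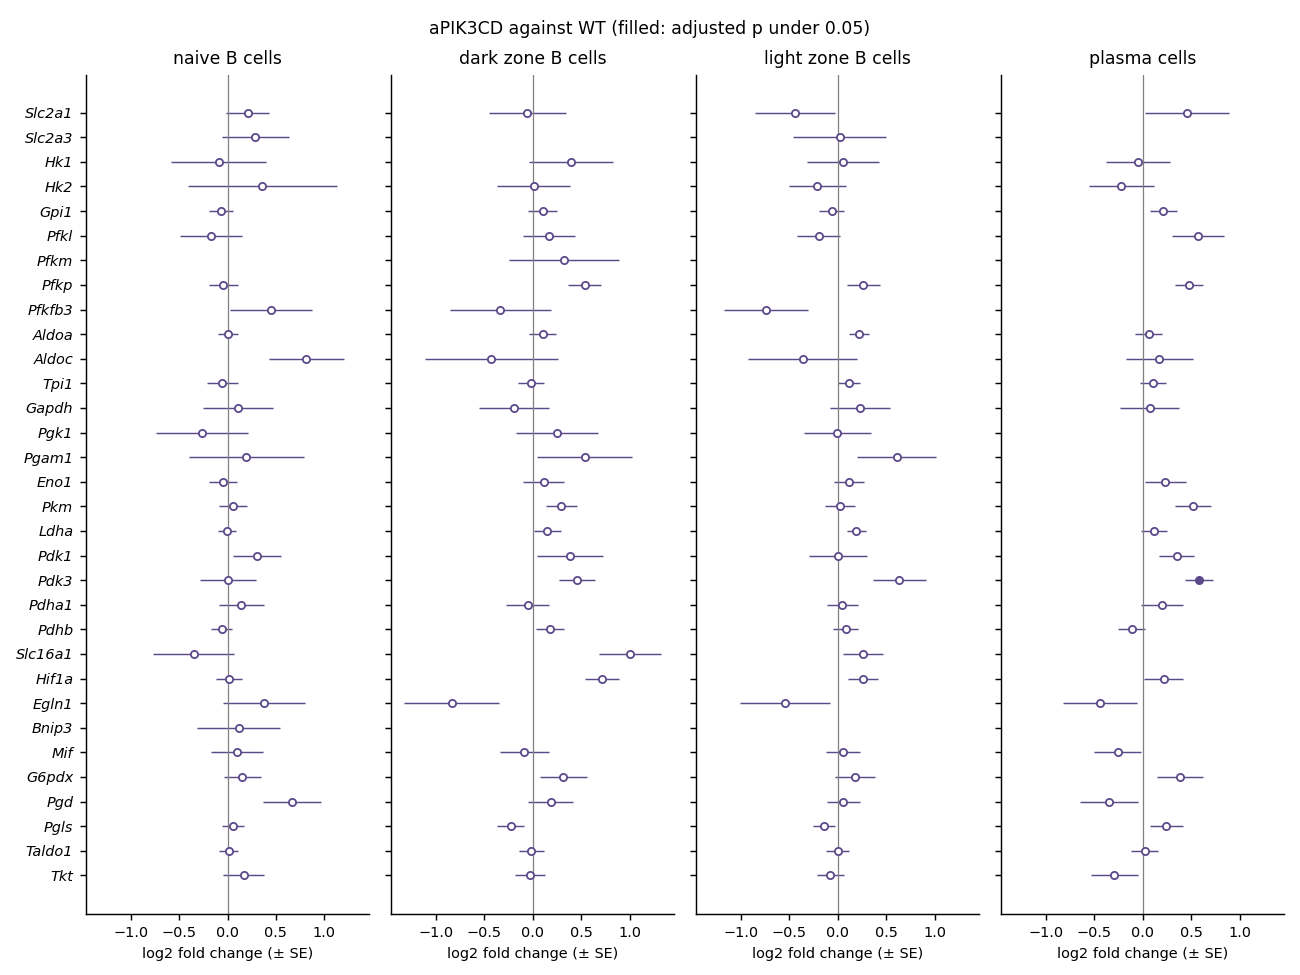
Log2 fold change of aPIK3CD against WT (x axis, points with SE) for each tested gene (y axis) in the 4 populations, with filled points at an adjusted p under 0.05. The single filled point is Pdk3 in plasma cells, and all but Slc16a1 in dark zone cells lie within 1 log2 unit of 0.

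The gene that passed was Pdk3. It measured 144, 99.4, 144 and 134 CPM in plasma cell WT and 197, 196, 188 and 218 in plasma cell aPIK3CD, and all 4 aPIK3CD libraries were above all 4 WT libraries. The means were 199.7 ± 12.5 and 130.3 ± 21.1 CPM (SD, n = 4), and edgeR's quasi-likelihood test gave a log2 fold change 0.58, SE 0.14, adjusted p = 0.045. The call was close to the threshold and was lost in 8 of 8 fits without 1 library (adjusted p 0.0573 to 0.115) and with replicate 1 of aPIK3CD counted as WT (adjusted p = 0.292). In light zone cells the Pdk3 difference was 0.64, SE 0.28, adjusted p = 0.744, and in dark zone cells 0.46, SE 0.19, adjusted p = 0.614. Its naive difference was 0.00, SE 0.29, adjusted p = 1. In plasma cells Pfkp had 267, 204, 298 and 289 CPM in WT and 348, 365, 393 and 399 in aPIK3CD, again without overlap, as did 14.7% of all genes tested there, and did not pass (0.48, SE 0.15, adjusted p = 0.081). Pkm had 128, 131, 161 and 151 in WT and 205, 223, 262 and 147 in aPIK3CD, with 1 aPIK3CD library inside the WT range (0.52, SE 0.18, adjusted p = 0.117). The 7 myeloid markers, of which S100a8 and S100a9 were at 0, summed to 7.85 to 367 CPM in plasma cell WT and 9.41 to 500.1 in plasma cell aPIK3CD. The 7 erythroid markers reached 267 CPM in 1 aPIK3CD library against at most 6.86 in WT, where Slc4a1, Alas2 and Hba-a2 were at 0, and the part of both lists in these values was not tested.

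In dark zone cells, Hif1a had 86.5, 132, 103 and 132 CPM in WT and 171, 191, 198 and 206 in aPIK3CD. The groups did not overlap, as for 4.36% of all genes tested there, and the difference did not pass (0.72, SE 0.17, adjusted p = 0.225). With no filter on low counts it passed (0.73, adjusted p = 0.0306). Slc16a1 (1.01, SE 0.32, adjusted p = 0.415) and Pfkp (0.54, SE 0.17, adjusted p = 0.415) had the next smallest p. In light zone cells Aldoa had 365, 449, 402 and 408 CPM in WT and 539, 434, 468 and 464 in aPIK3CD (0.22, SE 0.10, adjusted p = 0.763), and the groups overlapped. Ldha in light zone cells was 0.19, SE 0.10, adjusted p = 0.764. In naive cells Pgd (0.67, SE 0.30, adjusted p = 1), Aldoc (0.81, SE 0.38, adjusted p = 1) and Pdk1 (0.31, SE 0.25, adjusted p = 1) had the smallest p. Glucose transporters and hexokinases, which act first in the pathway, passed in none of the genotype comparisons in which they were tested.

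Whether the genotype difference varied among the 4 populations was tested in 1 fit of all 32 libraries. No member of 32 tested passed in edgeR, where 0.0256% of all genes did, and 3 had an unadjusted p under 0.05, where 7.07% of all genes did. These were Pfkm (adjusted p = 0.513), Hif1a (adjusted p = 0.57) and Slc16a1 (adjusted p = 0.614). For Slc16a1 the genotype log2 fold change was -0.35 in naive, 1.01 in dark zone and 0.26 in light zone cells, and for Hif1a 0.01, 0.72, 0.26 and 0.21 from naive to plasma cells. Pdk3 had an adjusted p of 0.941. The DESeq2 likelihood ratio test also called no member.

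The wider pathways around these genes were examined as 4 further lists, whose comparisons with naive cells share the naive libraries of a genotype. In the order dark zone, light zone and plasma cells against naive cells, 41.4%, 40% and 49.6% of all genes passed in WT and 43.6%, 42.6% and 52.8% in aPIK3CD, and the median log2 fold changes of all genes were -0.06, -0.04 and -0.09 in WT and -0.01, -0.02 and -0.08 in aPIK3CD. Other glycolysis and gluconeogenesis genes numbered 32 in the table. In WT, 1 rose and 6 fell of 16 tested in dark zone, 0 rose and 4 fell of 16 tested in light zone and 2 rose and 4 fell of 17 tested in plasma cells, with list medians of -0.75, -0.42 and -0.30. In aPIK3CD, 2 rose and 5 fell of 16 tested in dark zone, 0 rose and 5 fell of 16 tested in light zone and 4 rose and 4 fell of 18 tested in plasma cells, with medians of -0.83, -0.53 and -0.06. From light zone to plasma cells, 4 rose and 1 fell of 11 tested in WT and 6 rose and 4 fell of 17 tested in aPIK3CD, where 56.4% and 61.2% of all genes passed. Pgam2, the muscle phosphoglycerate mutase, rose in plasma cells, with 98.9 ± 43.3 CPM in WT and 195 ± 55.4 in aPIK3CD against 1.53 ± 1.51 and 1.09 ± 2.18 in naive cells (SD, n = 4). Bpgm, which makes 2,3-bisphosphoglycerate, rose in plasma cells of WT (2.06, SE 0.33, adjusted p = 0.000121) and aPIK3CD (2.22). Gpd2, the mitochondrial glycerol phosphate dehydrogenase, fell there (-2.94 and -2.53), and Gpd1l, a cytosolic relative, fell from dark to light zone in WT (-1.15) and aPIK3CD (-1.26). Between the genotypes, 1 of 9 tested genes of this list passed in plasma cells, Pgm3 of the hexosamine pathway (1.09, SE 0.20, adjusted p = 0.0214), named here after its value was seen, where 3.2% of all genes passed. At an unadjusted p under 0.05 there were 5 of the 9. The share of all genes at that threshold is not given here, so no excess can be read from this count. The list's median was 0.66, against 0.00 for all genes.

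Other lactate and pyruvate genes numbered 18. In WT, 1 rose and 3 fell of 13 tested in dark zone, 1 rose and 2 fell of 13 tested in light zone and 3 rose and 4 fell of 12 tested in plasma cells, with medians of -0.46, -0.28 and -0.52. In aPIK3CD, 0 rose and 5 fell of 13 tested, 0 rose and 3 fell of 13 tested and 4 rose and 3 fell of 12 tested in the same order, with medians of -0.41, -0.20 and 0.05. The plasma cell median of this list was thus below 0 in WT and above 0 in aPIK3CD, and that difference was not tested. Bsg, the chaperone of the lactate transporters, rose in plasma cells of WT (1.91, SE 0.15, adjusted p = 7.69e-08) and aPIK3CD (1.93), and so did Mpc2, a subunit of the mitochondrial pyruvate carrier (2.06 and 1.79). Pdk2, a further pyruvate dehydrogenase kinase, fell in WT from 26.9 ± 16 CPM in naive cells to 0 ± 0 in dark zone and 1.2 ± 2.01 in light zone cells (SD, n = 4). In plasma cell WT it measured 41.7 ± 18 CPM. Slc16a7, the transporter MCT2, fell in WT from 25.7 ± 11.6 CPM in naive cells to 2.36 ± 2.89 in dark zone, 0.159 ± 0.319 in light zone and 6.2 ± 3.66 in plasma cells.

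Other hypoxia response genes numbered 23. In WT, 2 rose and 5 fell of 14 tested in dark zone, 2 rose and 6 fell of 15 tested in light zone and 5 rose and 2 fell of 15 tested in plasma cells, with medians of -0.34, -0.69 and 0.16. In aPIK3CD, 1 rose and 7 fell of 16 tested, 1 rose and 7 fell of 15 tested and 5 rose and 4 fell of 14 tested, with medians of -0.55, -0.59 and 0.21. Mxi1, a repressor of MYC targets, fell in dark zone WT and rose in plasma cell WT (1.85, SE 0.25, adjusted p = 1.92e-05). Vegfa, the angiogenic growth factor, rose in plasma cell WT, to 39.2 ± 12.2 from 2.93 ± 3.41 CPM (SD, n = 4). Ero1l, an oxidase of the endoplasmic reticulum, fell in dark zone WT (-1.83) and rose in plasma cell WT (1.48, SE 0.19, adjusted p = 1.24e-05). Bnip3l, a mitophagy receptor, fell in both zones of WT (-1.08 and -1.49) and aPIK3CD (-1.27 and -1.31).

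Other pentose phosphate and ribose genes numbered 10. In WT, 2 rose and 1 fell of 9 tested in dark zone, 1 rose and 1 fell of 8 tested in light zone and 2 rose and 1 fell of 9 tested in plasma cells, with medians of -0.44, -0.27 and 0.05. In aPIK3CD, 2 rose and 1 fell of 7 tested, 1 rose and 1 fell of 7 tested and 2 rose and 3 fell of 9 tested, with medians of -0.16, -0.22 and 0.20. Rpia, the ribose phosphate isomerase, had log2 fold changes of 1.51, 1.30 and 2.24 in WT and 1.69, 1.30 and 1.71 in aPIK3CD, and each passed. Prps2, which makes phosphoribosyl pyrophosphate, fell from dark to light zone in WT (-0.77) and aPIK3CD (-0.80). Rbks, the ribokinase, rose in plasma cell WT (1.17), and H6pd, the dehydrogenase of the endoplasmic reticulum, fell in both zones of WT (-2.86 and -2.20). None of these 3 lists had a gene that passed between the genotypes in any population.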

How the data were processed

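The data are bulk RNA sequencing libraries of 500 sorted cells each, made with the SMART-Seq v4 kit, 4 for each of 4 populations and 2 genotypes. The values are raw read counts per gene in 1 table, deposited by the authors. Per the submitters' processing notes, the tools were STAR 2.4.2a, HTSeq and Picard; which step each served, the genome build and the use of strand are not given in the sources used here. Amplified reads carry no molecular identifiers, so floors and intervals cover counting error only.

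Samples were grouped by the labels' titles. The 3433 rows that give an Ensembl identifier with no symbol held 0.173% of counts and were kept as genes. Each of 14 comparisons of 4 against 4 libraries had its own fit by the quasi-likelihood test of edgeR 4.0.16 (R 4.3.3), with TMM scaling after filterByExpr (minimum count 10, minimum total 15), with p-values adjusted by Benjamini-Hochberg over all genes tested. The interaction of genotype and population used 1 fit of all 32 libraries. The SE is the size of the log2 fold change over the root of its F statistic. Printed CPM used TMM factors over all 32 libraries. Ratios of isoenzymes used counts plus 0.5 per exonic base, and exonic lengths of GENCODE M21. The alternatives were DESeq2 1.42.0, its size factors, no filter, leaving out antigen receptor genes (immunoglobulin and T cell receptor), a correction for saturated positions, a replicate block, 1 fit of all libraries, replicate 1 of aPIK3CD counted as WT, and leaving out each library.

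The fits were tested on simulated data, where 98.9% of genes changed by 2 log2 units and 27.7% of those changed by 1 were recovered in the plasma cell genotype comparison (7574 genes). In dark zone against naive WT 92.8% and 19.6% were recovered, and in light against dark zone WT 96.9% and 22.9%. The simulation gave every gene the same spread beyond counting error, so these shares need not hold for the real libraries. Some marker genes are not reported here. The genes described and the gene lists were chosen with earlier results of these data known. Values are given in every library for up to 4 members per comparison with the smallest p among those past the threshold.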

Additional observations from a re-analysis of the deposited data

Results flagged for a closer look

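Each gene was examined in each of the 8 groups of 4 libraries for a library whose gap to its nearest neighbour took more of the group's range than Dixon's 95% critical value allows. Of 256 groups, 22 met it, and chance alone gives about 1 in 20. Many of the 22 came from dark zone WT replicate 3, where 1 count equals 34.3 CPM and a count of 0 allows up to 103 CPM. The count of 22 therefore cannot be read as an excess over chance.

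In dark zone WT replicate 3, the library of 25797 counts, Pgam1, Pfkfb3, Pgd, Pdha1, Egln1, Hk1, Pgk1 and Eno1 were at 0 CPM, Tkt was low at 68.6 and Pdk3 was low at 34.3. Gapdh was high there at 137 CPM. Dark zone WT replicate 4 was low for Pdk1 at 27.4 CPM.

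Among naive libraries, Pfkl was high in WT replicate 2 at 230.3 CPM, Pgd was low in aPIK3CD replicate 1 at 69.3, and Pdha1 was low in aPIK3CD replicate 2 at 112 CPM. In the germinal centre, Pgam1 was low in light zone WT replicate 4 at 5.24 CPM and Pdha1 was high in light zone WT replicate 2 at 128. Eno1 was high in light zone aPIK3CD replicate 1 at 163 CPM and G6pdx was high in dark zone aPIK3CD replicate 1 at 81.1. In plasma cells, Aldoa was low in WT replicate 2 at 444.8 CPM, and aPIK3CD replicate 3 was high for Pfkl at 141 and low for Tpi1 at 199.6.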

How the results depend on the processing

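Of 121 gene results that passed in the comparisons of 2 groups, 0 changed sign under any alternative, 74 passed under all of them and 81 in every fit without 1 library. Of 297 that did not pass, 46 passed under some alternative and 98 changed sign. The calls lost were 19 with no filter, 14 with replicate 1 of aPIK3CD counted as WT, 9 with the replicate block, 7 in the single fit of all libraries, 7 with DESeq2, 4 with its size factors, 3 with the saturation correction and 0 without immunoglobulin genes. The cause was not tested. DESeq2's size factors moved the median of all genes in dark zone against naive WT from -0.06 to -0.23.

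In the plasma cell genotype comparison 1 member passed, 2 did under DESeq2 and without immunoglobulin genes, and 0 did under the replicate block, in the single fit, with replicate 1 counted as WT and in the fits without 1 library (0 to 0). With no filter 1 member passed between genotypes in dark zone (Hif1a) and 1 in light zone cells (Pdk3). In dark zone against naive WT, 8 passed under DESeq2 and 8 to 13 without 1 library. In light zone against naive WT, 9 to 15 passed without 1 library. In dark zone against naive aPIK3CD, 9 passed without replicate 1. From dark to light zone, 0 passed in the single fit and 0 to 1 without 1 library in WT. In aPIK3CD, 3 passed under DESeq2, 4 with the replicate block, 0 in the single fit, 0 without replicate 1 and 0 to 1 without 1 library. Same-numbered libraries were not taken as pairs, because no label states a shared mouse. In 0 of 14 comparisons did every such pair deviate together with a correlation over 0.1, but this bar cannot exclude shared mice. The 14 include 4 comparisons between genotypes, where same-numbered libraries carry different names and which have no bearing on pairing. In 5 of 14 every pair's correlation was positive, and all 5 were comparisons within a genotype. In dark zone against naive and light against dark zone of aPIK3CD every library correlated best with its own number (0.0345 to 0.119 and 0.0491 to 0.18), a hint from the data. The count columns of a replicate number also carry 1 name in all populations, such as Control1. No label states that they share a mouse. The replicate block left the other counts within 1.5 times, at 11, 15, 17 and 12 in WT for dark zone, light zone and plasma cells against naive and plasma against light zone, and at 16, 15, 16 and 11 in aPIK3CD.

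Depth limits dark zone WT replicate 3, where 3 counts equal 103 CPM, and low genes in plasma cells.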
